A study of Mus musculus with 12 samples.

Results

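Whole-lung RNA of mice given L-NAME and a high-fat diet was examined for the 10 genes that build and load major histocompatibility complex (MHC) class I molecules: H2-K1, H2-D1, B2m, Tap1, Tap2, Tapbp, Psmb8, Psmb9, Psmb10 and Nlrc5. They were taken by symbol from the deposited expression table, and all 10 were found once among its 23127 genes. Levels are in CPM, the reads of a gene scaled to the same total in every library. All 10 averaged 1 CPM or more over the libraries and so were among the 15562 genes tested. The libraries were made from 12 C57BL6/J mice in 3 groups of 4. Controls were taken at 0 weeks, untreated. The other mice received L-NAME, an inhibitor of nitric oxide synthase, at 0.5 g/L in the drinking water together with a diet of 60% lipid, for 2 or 5 weeks. No untreated mice were taken at 2 or 5 weeks, so the treatment and the time that passed cannot be told apart, nor can the drug and the diet. The labels state neither the age and sex of the mice nor the diet of the controls.

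MHC class I molecules display peptides made inside a cell at its surface, where CD8+ T cells and natural killer (NK) cells read them. Proteasomes cut the peptides, the TAP transporter carries them into the endoplasmic reticulum, and tapasin helps to fit them into a groove formed by a heavy chain, whose partner is beta-2-microglobulin. Interferon gamma is the best known inducer of the whole set, through the transcription factor IRF1 and the coactivator NLRC5. In the lung, most nucleated cells carry class I, with leukocytes and endothelial cells known for high levels.

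Of the 10 genes, 7 lie on chromosome 17. In the deposited table's coordinates, whose build it does not name, Tapbp spans 34134873 to 34148266 on the plus strand and H2-K1 34214991 to 34219321 on the minus strand. Psmb9 (34400961 to 34406738, minus), Tap1 (34406527 to 34416199, plus), Psmb8 (34416695 to 34420428, plus) and Tap2 (34422501 to 34435295, plus) follow one another. H2-D1 spans 35481706 to 35486475 on the plus strand. B2m lies on chromosome 2 from 121978167 to 121983564 on the plus strand. Nlrc5 (95160984 to 95253900, plus) and Psmb10 (106662367 to 106665076, minus) lie on chromosome 8.

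The promoters of H2-K1, H2-D1 and B2m are shown because they hold the letters through which interferon and NF-kappaB are known to act on class I genes, and that of Tap1 because it is also the promoter region of Psmb9. Each is the RefSeq window on GRCm38.p6 from 250 bases before to 50 bases after the transcription start, written 5′ to 3′ on the gene's own strand. Capitals mark the letters GAAANNGAA or AGTTTCNNT of an interferon-stimulated response element, the letters GGGATTCCC of the class I NF-kappaB site, and CCAAT boxes, on either strand, so that a CCAAT box on the other strand reads ATTGG. H2-K1 has 2 listed starts, and the window of the upstream one is shown (chr17:34000298-34000597, minus strand). The others are H2-D1 (chr17:35262844-35263143, plus strand), B2m (chr2:122147437-122147736, plus strand) and Tap1 (chr17:34187306-34187605, plus strand).
H2-K1: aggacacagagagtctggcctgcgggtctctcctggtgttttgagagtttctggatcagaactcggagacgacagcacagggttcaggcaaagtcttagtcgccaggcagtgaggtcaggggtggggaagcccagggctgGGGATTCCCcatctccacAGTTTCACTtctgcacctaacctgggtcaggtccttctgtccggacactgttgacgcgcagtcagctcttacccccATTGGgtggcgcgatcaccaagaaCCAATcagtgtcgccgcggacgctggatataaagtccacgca
H2-D1: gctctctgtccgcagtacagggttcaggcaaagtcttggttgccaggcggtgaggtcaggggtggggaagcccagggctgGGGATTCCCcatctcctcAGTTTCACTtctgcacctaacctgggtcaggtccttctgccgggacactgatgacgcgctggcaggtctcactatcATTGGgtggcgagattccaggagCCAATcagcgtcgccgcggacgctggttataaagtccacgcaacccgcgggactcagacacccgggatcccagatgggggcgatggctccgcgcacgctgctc
B2m: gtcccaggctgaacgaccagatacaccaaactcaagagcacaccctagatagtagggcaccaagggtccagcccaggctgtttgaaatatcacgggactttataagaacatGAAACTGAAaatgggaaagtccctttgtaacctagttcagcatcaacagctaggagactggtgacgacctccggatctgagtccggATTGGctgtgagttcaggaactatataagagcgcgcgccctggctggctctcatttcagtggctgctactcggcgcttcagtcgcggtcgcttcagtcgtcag
Tap1: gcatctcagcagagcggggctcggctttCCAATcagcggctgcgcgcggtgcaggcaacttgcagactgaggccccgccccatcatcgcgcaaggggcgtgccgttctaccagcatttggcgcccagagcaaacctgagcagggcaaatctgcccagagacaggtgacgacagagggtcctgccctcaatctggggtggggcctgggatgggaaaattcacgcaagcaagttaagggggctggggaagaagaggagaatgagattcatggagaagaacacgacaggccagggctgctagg

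Windows were found for 8 of the 10 genes, leaving out Tap2 and Nlrc5. The H2-K1 and H2-D1 windows were alike, with 211 of 239 aligned bases identical (88.3%). Both hold GGGATTCCC and, after it, AGTTTCACT at positions -92 to -84 in H2-K1 and -152 to -144 in H2-D1, counted from the start. TATAAA lies at 35 to 40 in H2-K1 and at -26 to -21 in H2-D1. The listed starts are thus placed differently in the 2 windows, and positions counted from them are not directly comparable. GGGATTCCC was found in these 2 of the 8 genes and in 0.353% of the 32851 mouse windows of the same length. AGTTTCNNT was found in 3 of the 8, Psmb8 being the third, and in 4.94% of all windows. B2m has GAAACTGAA at -139 to -131, the one match of GAAANNGAA among the 8 genes, and these letters occur in 8.56% of all windows. CCAAT was found in 6 of the 8 genes and in 37.4% of all windows, and TGACG, the core of a cyclic-AMP response element, in 5 of the 8 and in 20.8%. TATAAA was found in 4 of the 8 genes and in 13.6% of all windows. Besides H2-K1 and H2-D1, it lay at -237 to -232 in Psmb8 and at -152 to -147 on the other strand in B2m. Tap1 and Psmb9 are transcribed away from each other and their windows share 275 bases, so their promoters are not independent sequences. All searches covered both strands, and AGTTTCNNT and GAAANNGAA can overlap on opposite strands. A match describes letters, not binding.

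Depth read from the spacing of low values was 26000000 to 34100000 reads per library. Whole reads could not be recovered, so values carry no counting interval. No 2 libraries were identical. Defining lung genes such as Sftpc and Pecam1 were present in all 12. Correlation across genes set 3 libraries apart from the rest of their own group: 2-week replicate 3 (median r 0.972), control replicate 2 (0.979) and 5-week replicate 3 (0.98), against 0.984 to 0.994 for the others. For each pair of groups, the counts of members at an unadjusted p under 0.05 and with no overlap are therefore also given without these 3 libraries, an alternative chosen after seeing the data.

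After 5 weeks, mean levels of class I transcripts were above those of controls at each step of the pathway, from proteasome subunits to heavy chains, by amounts between 1.07 times for Tapbp and 1.40 times for Psmb9, and no single gene passed the test. Mean log2(CPM + 1) was higher in 5-week than in control lungs for 10 of 10 genes, where the difference lay above 0 for 55% of all tested genes. The median log2 difference was 0.256 for the 10 genes and 0.018 for all tested genes. By limma with Benjamini-Hochberg adjustment over all 15562 genes, none of the 10 passed 0.05, with adjusted p from 0.445 for Psmb9 to 0.731 for Nlrc5, and no tested gene did (0%). At an unadjusted p under 0.05, 8 of 10 were higher in 5-week lungs and none lower, against 5.84% and 2.79% of all tested genes (8.63% in either direction). All 4 of the 5-week lungs lay above all 4 controls for 4 of 10 genes, against 3.65% of all tested genes, and below them for none, against 1.36%. Without the 3 libraries that stand apart these counts were 8 and 5. Without 5-week replicate 4 the count at an unadjusted p under 0.05 was 5. The count with no overlap was 7 without 5-week replicate 1 and 9 without control replicate 1.

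At 2 weeks the same genes sat close to the controls. Mean log2(CPM + 1) was above the controls for 7 of 10, where 55.1% of all tested genes lay above 0. The median log2 difference was 0.037, against 0.019 for all tested genes. None passed an adjusted p of 0.05 by limma (0% of all tested genes), none reached an unadjusted p under 0.05 (5.72% of tested genes did so with a higher and 3.52% with a lower level, 9.24% together), and none had groups without overlap (3.37% higher and 1.95% lower). Without control replicate 1, 2 genes reached an unadjusted p under 0.05 and 4 had no overlap. Without control replicate 3 there was 1 gene of each kind. Without 5-week replicate 3, whose spread enters the fit, 1 gene reached an unadjusted p under 0.05, and without 2-week replicate 4, 1 gene had no overlap. Without the 3 libraries that stand apart both counts were 0.

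Set against 2 weeks, the 5-week lungs were again higher in mean for 10 of 10 genes, where 50.2% of all tested genes lay above 0. The median log2 difference was 0.241, against 0.001 for all tested genes. None passed an adjusted p of 0.05 by limma, and neither did any tested gene (0%). At an unadjusted p under 0.05, 6 of 10 were higher and none lower, against 6.18% and 4.72% of all tested genes (10.9% in either direction). No overlap, with the 5-week lungs higher, was seen for 3 of 10, against 2.38%, and with them lower for none, against 2.56%. This comparison and that with the controls share the 5-week libraries, so their counts are not independent. Without 2-week replicate 1, 2-week replicate 2 or 5-week replicate 4 the count at an unadjusted p under 0.05 was 3. The count with no overlap was 5 without 2-week replicate 4, 5-week replicate 1 or 5-week replicate 3. Without the 3 libraries that stand apart the counts were 7 and 6. Over the 3 groups together, 7 of 10 reached an unadjusted p under 0.05 in limma's moderated F-test, against 10.8% of all tested genes, and none passed after adjustment (0% of all tested genes).

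The 5-week against 2-week result depended on how libraries were weighted. With limma's library weights, 5 of the 10 (H2-K1, H2-D1, B2m, Psmb8 and Nlrc5) passed an adjusted p of 0.05 and were higher, against 3.72% of all tested genes (5.66% in either direction). In that fit 5-week replicate 3 carried a weight of 0.205, the lowest of the 12. Without 2-week replicate 4, B2m alone passed (adjusted p = 0.0193 by limma), against 1.84% of all tested genes (2.48% in either direction). Under no setting tried did a member pass in 5-week against control or in 2-week against control lungs.

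**Figure D1:**
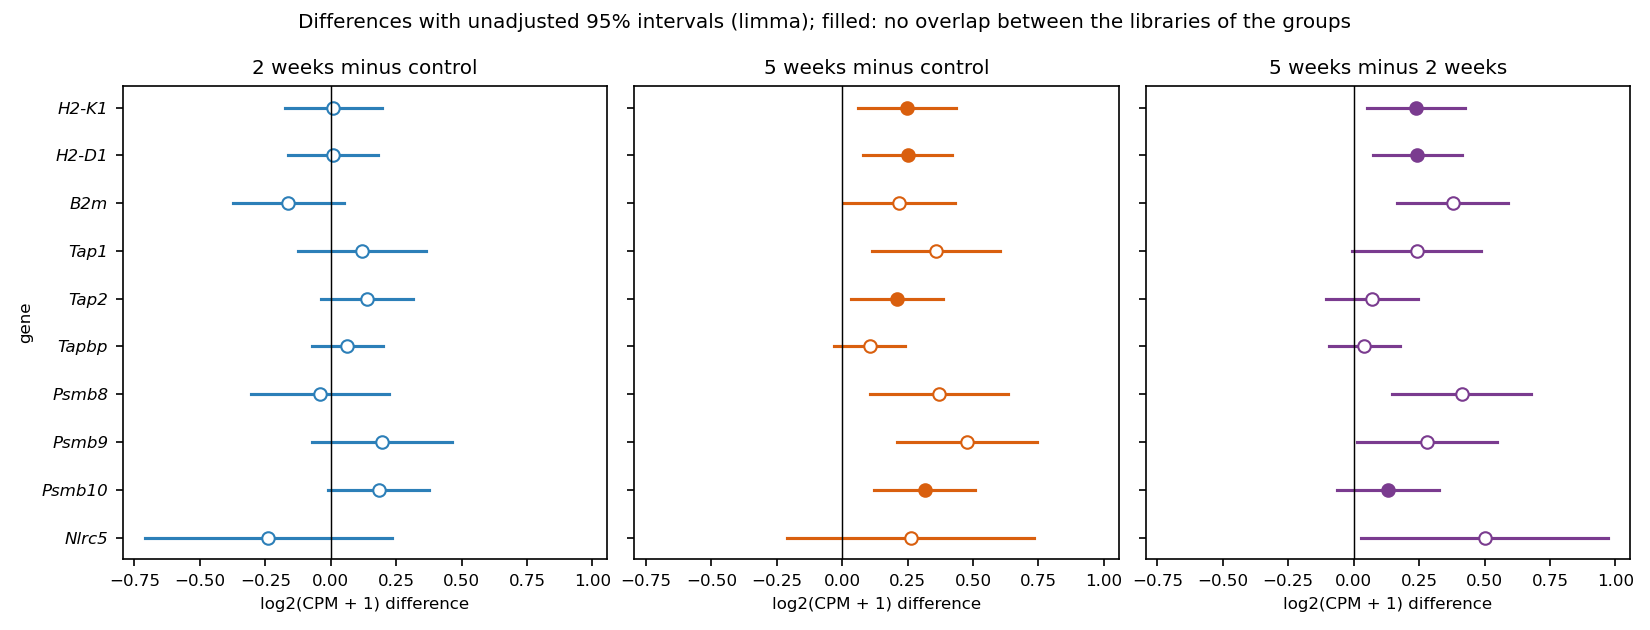
Difference in log2(CPM + 1) for each of the 10 genes (points, filled where the libraries of the groups do not overlap) with its unadjusted 95% confidence interval from the limma fit (bars), for 2-week against control, 5-week against control and 5-week against 2-week lungs, 4 mice a group. The 10 points for 5-week against control lungs lie above 0, from 0.10 for Tapbp to 0.48 for Psmb9, and no gene passed an adjusted p of 0.05.

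The heavy chains H2-K1 and H2-D1 are the polymorphic peptide-presenting chains of this strain, and B2m encodes the light chain that both need to reach the surface. H2-D1 read 1423, 1356, 1357 and 1210 CPM in the 4 controls, 1295, 1307, 1387 and 1382 CPM in the 2-week lungs, and 1479, 1546, 1602 and 1734 CPM in the 5-week lungs. Every 5-week lung was above every control and every 2-week lung, while the control and 2-week ranges overlapped. The mean was 1590 ± 108 CPM in 5-week lungs and 1336 ± 90.2 CPM in controls (SD, n = 4 each), a log2 difference of 0.25 ± 0.08 (SE, limma adjusted p = 0.512). Against 2-week lungs, at 1343 ± 48.3 CPM, the log2 difference was 0.24 ± 0.08 (limma adjusted p = 0.306).

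H2-K1 showed the same order. It read 1087, 1054, 1044 and 950 CPM in controls, 980, 979, 1138 and 1070 CPM in 2-week lungs, and 1146, 1234, 1143 and 1395 CPM in 5-week lungs. The 5-week lungs lay above both other groups without overlap, but the lowest of them, at 1143 CPM, was just over the highest 2-week lung, at 1138 CPM. The 5-week mean of 1230 ± 118 CPM stood against 1034 ± 59.0 CPM in controls (SD, n = 4 each), with a log2 difference of 0.25 ± 0.09 (SE, limma adjusted p = 0.536). The 2-week mean, 1042 ± 77.2 CPM, was within the spread of the controls.

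B2m read 1222, 1151, 1069 and 1120 CPM in controls, 948, 925, 993 and 1233 CPM in 2-week lungs, and 1195, 1336, 1333 and 1445 CPM in 5-week lungs. The 2-week replicates 1 to 3 were below every control and the fourth, replicate 4, was above every control. The lowest 5-week lung fell inside the control range. Means were 1327 ± 102 CPM in 5-week lungs, 1025 ± 142 CPM in 2-week lungs and 1140 ± 63.9 CPM in controls (SD, n = 4 each). The log2 difference was 0.38 ± 0.10 in 5-week against 2-week lungs (SE, limma adjusted p = 0.288) and 0.22 ± 0.10 in 5-week against control lungs (limma adjusted p = 0.575). The 2-week difference from controls was -0.16 ± 0.10 (limma adjusted p = 0.616).

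The peptide transporter is a pair of Tap1 and Tap2, and Tapbp encodes tapasin, which bridges the transporter and the waiting heavy chain. Tap1 read 65.5, 52.9, 56.5 and 53.5 CPM in controls, 57.3, 58.7, 64.0 and 68.0 CPM in 2-week lungs, and 65.5, 75.1, 63.2 and 92.3 CPM in 5-week lungs. The groups overlapped, and 5-week replicate 4 was far above the rest. Means were 74.0 ± 13.2 CPM in 5-week lungs and 57.1 ± 5.81 CPM in controls (SD, n = 4 each), a log2 difference of 0.36 ± 0.11 (SE, limma adjusted p = 0.516).

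Tap2 read 107, 93.1, 107 and 91.0 CPM in controls, 105, 113, 117 and 103 CPM in 2-week lungs, and 114, 109, 107.07 and 130 CPM in 5-week lungs. All 5-week lungs lay above all controls, but by as little as 107.07 against 106.895 CPM. The mean was 115 ± 10.5 CPM in 5-week lungs and 99.4 ± 8.53 CPM in controls (SD, n = 4 each), a log2 difference of 0.21 ± 0.08 (SE, limma adjusted p = 0.551). The 2-week mean was 109 ± 6.76 CPM, and its range overlapped both others.

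Tapbp had the smallest log2 difference of the 10 genes in 5-week against control lungs. It read 372, 349, 350 and 311 CPM in controls, 360, 371, 351 and 358 CPM in 2-week lungs, and 373, 373, 358 and 379 CPM in 5-week lungs, and the ranges overlapped. The mean was 371 ± 8.88 CPM in 5-week lungs and 345 ± 25.3 CPM in controls (SD, n = 4 each), a log2 difference of 0.10 ± 0.06 (SE, limma adjusted p = 0.659). Without control replicate 4, at 311 CPM, the difference was 0.055.

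Psmb8, Psmb9 and Psmb10 encode the inducible catalytic subunits that take the place of Psmb5, Psmb6 and Psmb7 in the immunoproteasome. Psmb9 had the largest log2 difference of the 10 genes in 5-week against control lungs, 0.48 ± 0.12 (SE, limma adjusted p = 0.445). It read 40.7, 30.9, 33.7 and 27.5 CPM in controls, 34.1, 35.5, 44.3 and 38.3 CPM in 2-week lungs, and 40.1, 43.2, 52.2 and 50.2 CPM in 5-week lungs. Control replicate 1, at 40.7 CPM, lay above the lowest 5-week lung, at 40.1 CPM, and the other controls lay below all 5-week lungs. Means were 46.4 ± 5.70 CPM in 5-week lungs, 38.0 ± 4.50 CPM in 2-week lungs and 33.2 ± 5.61 CPM in controls (SD, n = 4 each).

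Psmb8 read 73.0, 71.9, 64.5 and 55.6 CPM in controls, 58.4, 57.0, 66.4 and 75.9 CPM in 2-week lungs, and 72.4, 82.2, 103 and 87.2 CPM in 5-week lungs. The lowest 5-week lung overlapped both other groups and the other 3 were above all 8 of their libraries. The mean was 86.2 ± 12.8 CPM in 5-week lungs, against 64.4 ± 8.69 CPM in 2-week lungs and 66.3 ± 8.03 CPM in controls (SD, n = 4 each). Its log2 difference was 0.41 ± 0.12 from 2-week lungs (SE, limma adjusted p = 0.288) and 0.37 ± 0.12 from controls (limma adjusted p = 0.517).

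Psmb10 read 68.0, 55.7, 63.5 and 51.1 CPM in controls, 66.3, 67.3, 67.9 and 67.9 CPM in 2-week lungs, and 70.6, 71.2, 84.4 and 70.3 CPM in 5-week lungs. The 5-week lungs lay above both other groups without overlap, 3 of them within 1 CPM of each other and replicate 3 well above them. The mean was 74.1 ± 6.86 CPM in 5-week lungs, against 67.4 ± 0.761 CPM in 2-week lungs and 59.6 ± 7.62 CPM in controls (SD, n = 4 each). The log2 difference was 0.32 ± 0.09 from controls (SE, limma adjusted p = 0.509) and 0.13 ± 0.09 from 2-week lungs (limma adjusted p = 0.63). Without 5-week replicate 3 the difference from 2-week lungs was 0.069.

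**Figure D2:**
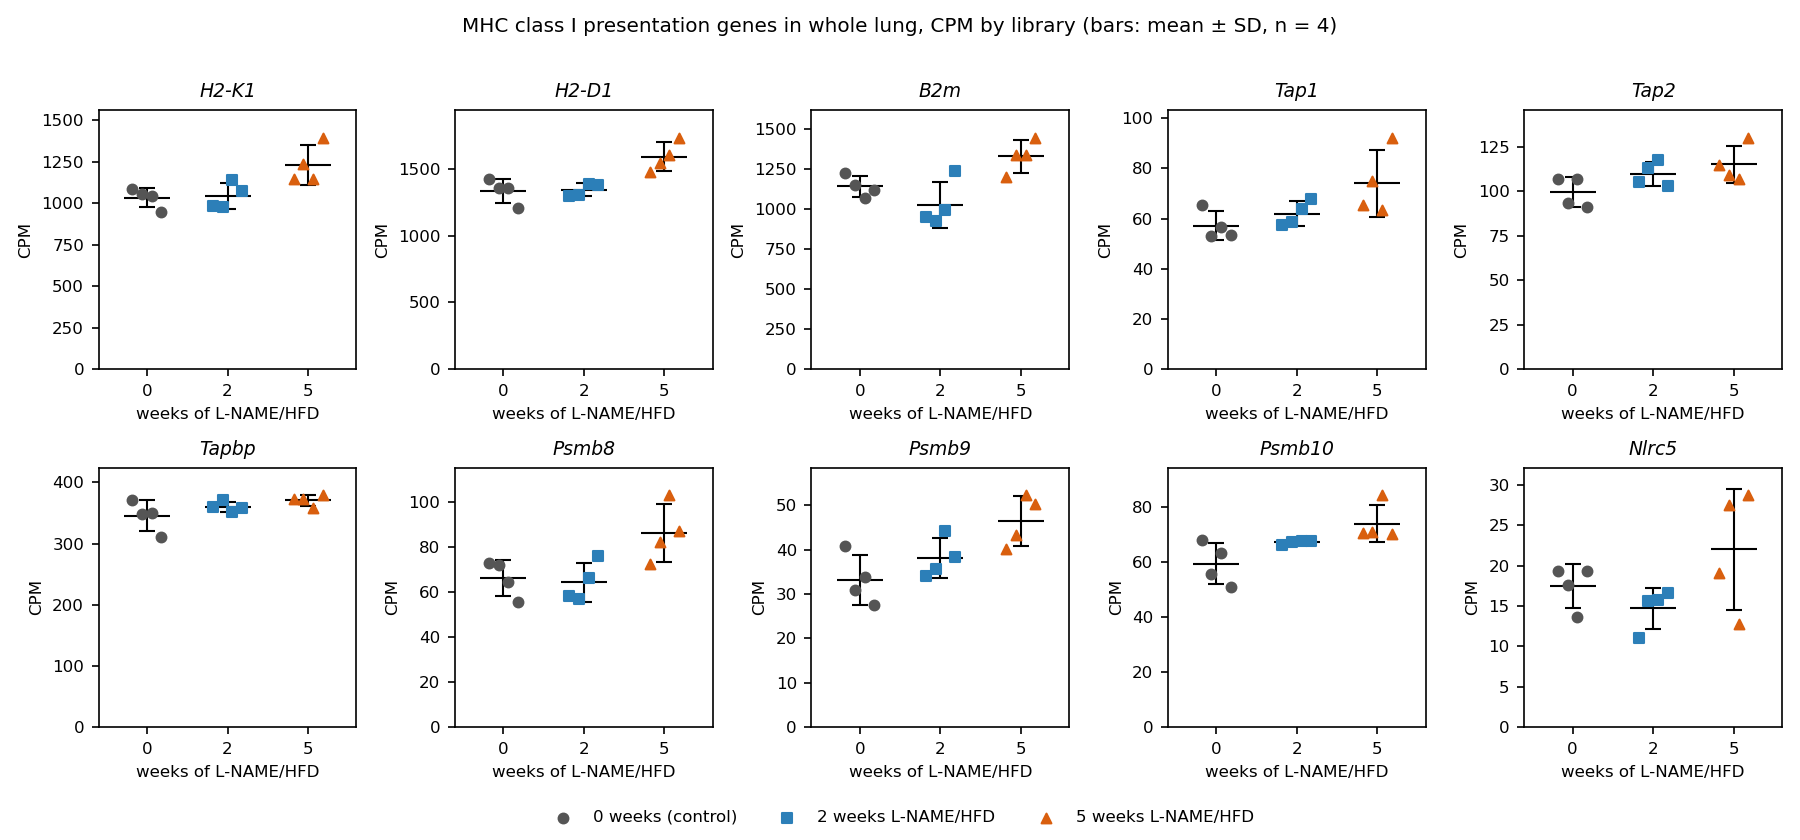
CPM of each of the 10 genes in each library (points), with the group mean and SD (bars), for controls at 0 weeks, 2-week and 5-week lungs, 4 mice each. The 5-week points of H2-K1, H2-D1, Tap2 and Psmb10 lie above all control points, and the control and 2-week points overlap in every panel.

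Whether the inducible subunits differed more than the constitutive ones they replace was read from the ratio of the 2 in the same library, which a common factor per library leaves as it is. Psmb8/Psmb5 was 1.24, 1.29, 1.04 and 1.14 in controls, 0.799, 0.933, 0.997 and 1.18 in 2-week lungs, and 1.16, 1.55, 1.27 and 1.48 in 5-week lungs. The log2 ratio was 0.49 ± 0.15 higher in 5-week than in 2-week lungs (SE, exact two-sided permutation p = 0.0571, adjusted p = 0.171 over the 9 ratio tests). It was 0.21 ± 0.12 higher in 5-week than in control lungs (exact permutation p = 0.143, adjusted p = 0.257). The 2-week difference from controls was -0.28 ± 0.14 (exact permutation p = 0.0857, adjusted p = 0.193).

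Psmb9/Psmb6 was 0.532, 0.43, 0.435 and 0.427 in controls, 0.41, 0.48, 0.543 and 0.508 in 2-week lungs, and 0.565, 0.612, 0.524 and 0.725 in 5-week lungs. Its log2 value was 0.41 ± 0.13 higher in 5-week than in control lungs (exact permutation p = 0.0571, adjusted p = 0.171). Of the controls, only replicate 1 reached into the 5-week range. Against 2-week lungs the 5-week log2 value was 0.32 ± 0.13 higher (exact permutation p = 0.0571, adjusted p = 0.171). Psmb10/Psmb7 was 1.10, 0.852, 1.07 and 1.08 in controls, 1.06, 1.20, 1.09 and 1.11 in 2-week lungs, and 1.14, 1.16, 0.942 and 1.31 in 5-week lungs, with a log2 difference of 0.15 ± 0.13 in 5-week against control lungs (exact permutation p = 0.314, adjusted p = 0.404). Leaving out 5-week replicate 3 gave a difference of 0.23, leaving out 5-week replicate 4 gave 0.077, and leaving out control replicate 2 gave 0.06. With 4 mice against 4 the smallest p this test can give is 0.0286, and none of the 9 comparisons reached it.

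The constitutive subunits themselves averaged 63.9 ± 12.1 CPM in 5-week and 56.4 ± 5.69 CPM in control lungs for Psmb5, 77.6 ± 14.7 and 72.6 ± 5.92 CPM for Psmb6, and 66.7 ± 15.7 and 58.4 ± 7.93 CPM for Psmb7, in the same order (SD, n = 4 each). Their 5-week spread came largely from replicate 3, which read 81.1, 99.6 and 89.6 CPM for Psmb5, Psmb6 and Psmb7. The same library held the highest Psmb8, Psmb9 and Psmb10 of all 12.

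**Figure D3:**
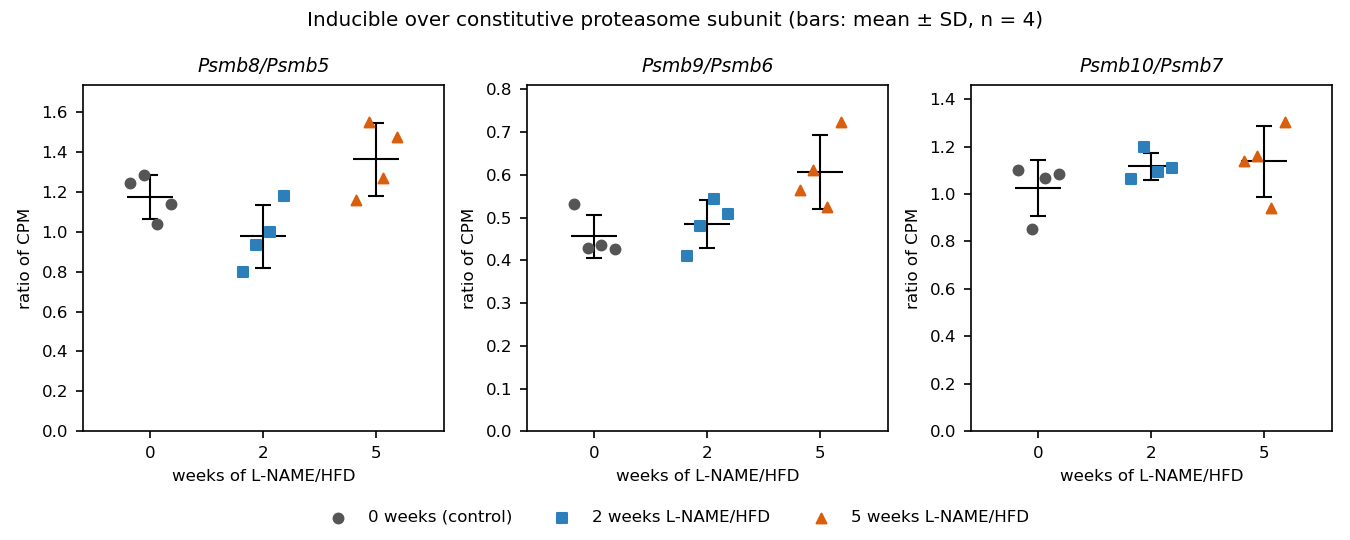
Ratio of CPM of each inducible catalytic subunit to the constitutive subunit it replaces, in each library (points) with the group mean and SD (bars), for controls at 0 weeks, 2-week and 5-week lungs, 4 mice each. In no panel are 2 groups fully apart, and the highest value in each panel is a 5-week lung.

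Nlrc5, the coactivator of class I genes, was the lowest and most variable of the 10. It read 19.4, 17.6, 13.6 and 19.4 CPM in controls, 10.99, 15.6, 15.7 and 16.6 CPM in 2-week lungs, and 19.1, 27.5, 12.7 and 28.7 CPM in 5-week lungs. The 5-week lungs span both ends, with replicate 3 below every control and replicates 2 and 4 above every other lung. The mean was 22.03 ± 7.52 CPM in 5-week lungs, against 14.7 ± 2.52 CPM in 2-week lungs and 17.5 ± 2.71 CPM in controls (SD, n = 4 each). The log2 difference was 0.50 ± 0.22 from 2-week lungs (SE, limma adjusted p = 0.435) and 0.26 ± 0.22 from controls (limma adjusted p = 0.731). Without 5-week replicate 3 the differences were 0.73 and 0.49, and without 5-week replicate 4 they were 0.36 and 0.12. The difference from controls was 0.14 without 5-week replicate 2 and 0.15 without control replicate 3.

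Levels can be compared between genes only per length of transcript. Per kilobase of merged exons, from GENCODE M21, B2m stood highest at 1326 ± 74.3 CPM per kb in controls (SD, n = 4 here and for each level that follows). H2-D1, at 636 ± 42.9, and H2-K1, at 624 ± 35.6 CPM per kb, came next and did not differ beyond their spread. Tapbp followed at 119 ± 8.74 CPM per kb. Psmb10 (45.4 ± 5.81) and Psmb8 (40.7 ± 4.94 CPM per kb) were within each other's spread. Tap2 (28.9 ± 2.48), Psmb9 (24.6 ± 4.15) and Tap1 (19.3 ± 1.97 CPM per kb) followed, with overlap between the controls of Tap2 and Psmb9 and between those of Psmb9 and Tap1. Nlrc5 was lowest at 2.16 ± 0.334 CPM per kb. In 5-week lungs B2m, H2-D1, H2-K1, Tapbp, Psmb10 and Psmb8 kept these ranks, while Psmb9, at 34.4 ± 4.22, and Tap2, at 33.4 ± 3.05 CPM per kb, stood in the reverse order, within their spread.

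Some of these values share reads or sequence with other genes, and no source used here says how such reads were assigned. Of the 50-base words of its transcript, H2-D1 shared 14.3% and H2-K1 8.79% with other class I genes. The reads of the 2 heavy chains therefore cannot be fully separated from each other or from H2-Q1, H2-Q6, H2-Q7 and H2-T23. Tap1 and Psmb9 overlap by 212 bases on opposite strands. The span of Tapbp overlaps that of Zbtb22, at 43.7 CPM, over 3422 bases on the same strand, introns included. Zbtb22 was not among the genes sharing most 50-base words with the Tapbp transcript, which were Gm19412, AC122861.4 and Aspscr1. Tapbp shared 599 of its 2849 words with other genes, the largest share of the 10 genes. Of these, 541 were shared with Gm19412, at 1.02 CPM on the opposite strand. Tap2 shared 427 of its 3393 words, 336 of them with Gm15821, at 0.374 CPM. B2m lies inside Patl2, which held 0.0452 CPM, and B2m, Psmb10 and Nlrc5 shared no 50-base word with another gene.

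Within groups, the same lungs tended to be high or low for many of the 10 genes. Control replicate 1 was the highest control for 10 of 10, and control replicate 4 was the lowest of all 12 libraries for 7. At the other end, 5-week replicate 4 was the highest of all 12 for 7 genes, and 5-week replicate 3 for the other 3, the immunoproteasome subunits. Replicate 3 was also the lowest 5-week lung for 5 genes.

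Averaged over the 10 genes, each standardized over the 12 libraries, the profile stood at 0.38 to 1.60 in 5-week lungs, against -0.75 to 0.02 in 2-week lungs and -1.35 to 0.22 in controls. H2-D1 lay nearest to this mean profile, at a root mean square distance of 0.217, and Nlrc5 farthest, at 0.902. The median distance of genes averaging 10 CPM or more, the members and predicted genes left out, was 1.35. Each member is part of the mean it is measured against, so the short distances of members are in part built in. Outside the 10 genes, the nearest profile over the 12 libraries was that of H2-T23 (0.331), a class Ib heavy chain that NK cells read through NKG2A. Next came Slc2a3, a glucose transporter (0.396), Samhd1, a nucleotide-degrading enzyme that limits viruses (0.475), H2-T22, another class Ib chain (0.480), Tada1, a chromatin-modifying complex subunit (0.487), and Prkcd, a protein kinase (0.525). H2-T23 read 231, 273, 273 and 312 CPM in 5-week lungs, against 247, 204, 222 and 210 CPM in controls, and control replicate 1 was again the highest control. These distances are descriptions over 12 lungs that share whatever makes whole libraries differ.

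Among the other heavy chains, 13 of the 16 genes of the class Ib and MHC-I-like list were tested, and none passed an adjusted p of 0.05. In 5-week against control lungs 10 of 13 had higher means, against 55% of all tested genes, with a median log2 difference of 0.288. At an unadjusted p under 0.05, 7 were higher and none lower, against 5.84% of all tested genes higher. No overlap, with the 5-week lungs higher, was seen for 2, against 3.65%. These shares of all tested genes also hold for the lists that follow. H2-T24 averaged 36.6 ± 1.26 CPM in 5-week lungs and 28.9 ± 1.87 CPM in controls (SD, n = 4 each), a log2 difference of 0.33 ± 0.09 (SE, limma adjusted p = 0.509), and it was at 35.8 ± 5.01 CPM in 2-week lungs. H2-M3, which presents formylated bacterial peptides, averaged 19.8 ± 1.76 CPM in 5-week lungs, against 15.6 ± 2.09 CPM in 2-week lungs and 16.1 ± 1.69 CPM in controls (SD, n = 4 each), and its 5-week lungs lay above both other groups. H2-Q10 had another pattern, at 8.90 ± 4.11 CPM in 5-week lungs, 3.04 ± 1.93 CPM in 2-week lungs and 9.38 ± 6.19 CPM in controls (SD, n = 4 each), with the controls spread between 5.13 and 18.3 CPM. Reads of these near copies cannot be fully told apart from each other.

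The partners that fold and trim in the endoplasmic reticulum differed less. All 5 (Calr, Canx, Pdia3, Erap1 and Tapbpl) had higher means in 5-week than in control lungs, with a median log2 difference of 0.088, and none reached an unadjusted p under 0.05. Calr, a chaperone of class I heavy chains, averaged 383 ± 16.3 CPM in 5-week lungs and 361 ± 33.0 CPM in controls (SD, n = 4 each). Tapbpl, a relative of tapasin, had the smallest unadjusted p of the 5, with a log2 difference of 0.14 ± 0.07 (SE, limma adjusted p = 0.632). Without 5-week replicate 2 it was 0.083.

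Of the 19 other proteasome genes, 17 had higher means in 5-week than in control lungs, with a median log2 difference of 0.135, and 1 of them, Psma6, reached an unadjusted p under 0.05. That share is near the 5.84% of all tested genes. Psma6, a structural subunit of the core, averaged 76.3 ± 17.8 CPM in 5-week lungs and 62.0 ± 4.69 CPM in controls (SD, n = 4 each), and its lowest 5-week lung, at 64.625 CPM, was barely above its highest control, at 64.566 CPM. In 5-week replicate 3 it read 103 CPM, and without that library its log2 difference was 0.12 in place of 0.27. Psme3, of a proteasome activator found in the nucleus, was level at 61.1 ± 1.62 CPM in 5-week lungs and 61.4 ± 1.87 CPM in controls (SD, n = 4 each).

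Genes that switch the pathway on were less uniform. Of 19 regulators, 14 had higher means in 5-week than in control lungs and none passed after adjustment, with a median log2 difference of 0.049. At an unadjusted p under 0.05 by limma, 2 were higher and none lower, against 5.84% and 2.79% of all tested genes. Rfx5, which binds class I and class II promoters, averaged 26.1 ± 1.46 CPM in 5-week lungs, 27.4 ± 2.21 CPM in 2-week lungs and 22.3 ± 3.05 CPM in controls (SD, n = 4 each). Irf8, a factor of myeloid and B cells, averaged 70.7 ± 2.77 CPM in 5-week lungs and 58.0 ± 9.90 CPM in 2-week lungs (SD, n = 4 each).

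Interferon-gamma-inducible genes had a median log2 difference of 0.319 in 5-week against control lungs, with 12 of 14 means higher and 3 at an unadjusted p under 0.05. Type I interferon-stimulated genes had a median of 0.097, with 12 of 15 means higher and 1 at an unadjusted p under 0.05. Of all tested genes, 55% had higher means and 5.84% were higher at an unadjusted p under 0.05. The 1 of 15 is near that last share. No gene of either list passed after adjustment, and the difference between the lists was not tested. Gbp2 averaged 89.6 ± 19.0 CPM in 5-week lungs and 69.9 ± 7.17 CPM in controls, and Igtp 45.8 ± 13.5 and 33.6 ± 6.16 CPM in the same order (SD, n = 4 each). Both encode GTPases of cell-autonomous defence. Cxcl10, a chemokine gene that interferon gamma also induces, stood the other way, at 1.56 ± 0.277 CPM in 5-week lungs, against 2.40 ± 0.628 CPM in 2-week lungs and 1.74 ± 0.186 CPM in controls (SD, n = 4 each). Among type I genes, Usp18, an inhibitor of interferon receptor signalling, averaged 20.51 ± 1.53 CPM in 5-week lungs and 17.7 ± 1.41 CPM in controls (SD, n = 4 each), with no overlap. Its lowest 5-week lung, at 18.71 CPM, was just above its highest control, at 18.48 CPM. The 2-week lungs, at 19.31 to 20.41 CPM, also lay above all controls.

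Transcripts of a list of class I receptors and related receptors had a median log2 difference of 0.576 in 5-week against control lungs. Not all receptors of this list bind class I. Of 10 tested, 10 had higher means, 6 reached an unadjusted p under 0.05 and 5 had no overlap, and none passed after adjustment. Among all tested genes the shares higher by these rules were 55%, 5.84% and 3.65%. Klra8, an activating Ly49 receptor of NK cells, averaged 3.77 ± 1.16 CPM in 5-week lungs and 1.73 ± 0.291 CPM in controls (SD, n = 4 each), a log2 difference of 0.78 ± 0.19 (SE, limma adjusted p = 0.379). Klrk1, which encodes NKG2D, averaged 10.2 ± 1.36 CPM in 5-week lungs and 5.71 ± 0.642 CPM in controls (SD, n = 4 each), a log2 difference of 0.73 ± 0.20 (SE, limma adjusted p = 0.471). Pirb, an inhibitory receptor of myeloid and B cells, averaged 24.1 ± 3.78 CPM in 5-week lungs, against 13.6 ± 5.11 CPM in 2-week lungs and 19.8 ± 5.34 CPM in controls (SD, n = 4 each). Cd8a and Cd8b1 are in this list and in the T cell marker list used next.

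Against 2-week lungs, the 5-week median log2 differences were 0.545 for these receptors, 0.195 for the class Ib chains, 0.119 for the loading partners, 0.058 for the other proteasome genes, 0.055 for the regulators, 0.24 for the interferon-gamma-inducible genes and 0.05 for the type I genes. In 2-week against control lungs the same medians lay between -0.032 for the type I genes and 0.068 for the other proteasome genes. No gene of any of these lists passed an adjusted p of 0.05 in either comparison.

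Leukocyte markers stood higher in the same 5-week lungs. The 4 pan-leukocyte markers summed to 535 to 781 CPM in 5-week lungs, against 299 to 600 CPM in 2-week lungs and 328 to 539 CPM in controls. Ptprc, which encodes CD45, read 128, 123, 178 and 164 CPM in 5-week lungs, against 57.5, 73.7, 76.7 and 136 CPM in 2-week lungs and 116, 109, 60.1 and 104 CPM in controls. All 5-week lungs were above all controls, and 2-week replicate 4 was far above the other 2-week lungs.

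By cell type, means were higher in 5-week than in control lungs for 8 of 8 tested NK and cytotoxic markers (median log2 difference 0.704), 7 of 7 B cell markers (0.808), 8 of 8 monocyte markers (0.688), 7 of 7 tested neutrophil markers (1.091) and 7 of 8 T cell markers (0.391). These counts, and those below, compare means of log2(CPM + 1), by which 55% of all tested genes lay above 0. Ifng, of the NK list, and Ly6g, of the neutrophil list, averaged under 1 CPM and were not tested. Ifng lay at 0.0763 to 0.410 CPM in controls and 0.0769 to 0.250 CPM in 5-week lungs. Ly6g lay at 0.0763 to 0.557 CPM and 0.036 to 0.531 CPM in the same order. Summed NK and cytotoxic markers lay between 86.4 and 129 CPM in 5-week lungs and between 41.1 and 75.3 CPM in controls, and summed B cell markers between 201 and 404 CPM and between 106 and 183 CPM in the same order. Dendritic cell and MHC class II markers had 8 of 9 means higher (0.298) and alveolar macrophage markers 7 of 8 (0.273), while interstitial macrophage markers had 1 of 7 (-0.319). Endothelial markers had 2 of 9 means higher (-0.02), with sums of 4794 to 6009 CPM in 5-week lungs and 5084 to 6248 CPM in controls, and alveolar epithelial markers 9 of 9 (0.135). Airway epithelial markers had 1 of 6 (-0.089), fibroblast and smooth muscle markers 0 of 8 (-0.153) and adipocyte markers 1 of 6 (-1.009). The adipocyte sum was 32.9 to 131 CPM in 5-week lungs, against 33.8, 55.6 and 107.5 CPM in 3 controls and 1435 CPM in control replicate 2. Red cell markers had 6 of 6 (1.453), with sums of 1509 to 16210 CPM in 5-week lungs, the highest in replicate 3, and 1235 to 2604 CPM in controls. No marker was without reads in all 12 libraries. In bulk tissue more cells of a type and more RNA per cell cannot be told apart, and the part of these markers in the class I values was not tested.

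**Figure D4:**
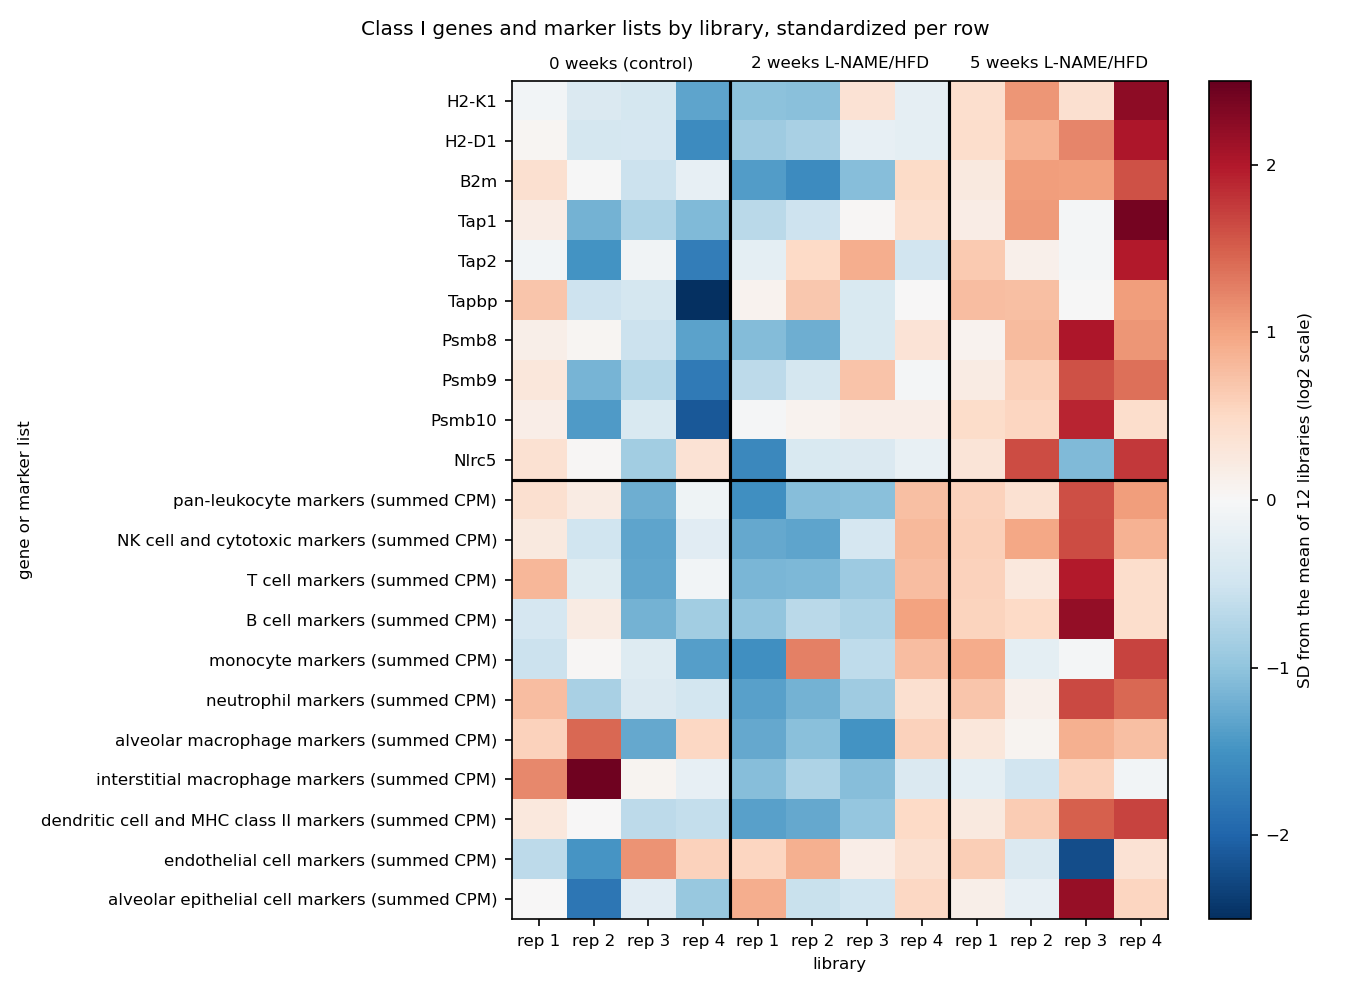
Heat map of the 10 class I genes (log2(CPM + 1), above the line) and of summed CPM of marker lists (log2, below the line) in the 12 libraries (columns, grouped by weeks of treatment), each row in SD from its mean over the libraries. Most class I genes and leukocyte lists are red in 5-week replicate 4 and blue in 2-week replicate 1, while in 5-week replicate 3 T and B cell markers are at their highest and endothelial markers at their lowest.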

How the data were processed

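RNA was isolated from flash-frozen whole lung with a Qiagen kit and libraries followed standard Illumina protocols, per the labels' protocols. The authors deposited 1 table of genes by libraries in CPM, each cell raised by 0.0001. Per the submitters' processing notes, TopHat2 and Partek were used with mm10. No source used here gives versions, annotation, strandedness or how shared reads were counted. Low CPM values fall on steps of 1 read that give the depth of each library, but the 87.2% to 87.9% of low values found at most 0.1 step from a whole number were too few to recover counts, so no count model was fitted and no counting interval is given. Since the table's gene spans match GENCODE M21 lengths for 10 of 10 genes and its starts for 0, positions are printed as deposited.

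Values were analysed as log2(CPM + 1), a scale that understates differences of low genes, for genes averaging 1 CPM or more. Counts of genes with higher means compare means on this scale, whose order can differ from that of mean CPM. Limma 3.58.1 in R 4.3.3 fitted 1 mean per group over all 12 libraries with a variance trend. Its two-sided tests were adjusted by Benjamini-Hochberg over all 15562 genes at 0.05. Ratios of proteasome subunits were compared with exact permutation tests (scipy 1.17.1, Python 3.11.15), adjusted over 9 tests. The fit was tested on simulated data with fold changes larger than those of the 10 genes, so that test does not show what the fit finds at their size. The 10 genes, the lists and the tests were chosen with earlier results of these data known. Genes named from each list are those past the threshold or, with none, the 2 with the smallest p in each comparison, plus Psmb5, Psmb6 and Psmb7, and the 6 genes of nearest profile, predicted genes left out. Of the genes this rule names, 1 regulator is not reported here. Groups come from the labels, where each library is a separate mouse. Replicates were numbered 1 to 4 by order within a group, and the numbers pair nothing. No batch is given in the labels. P-values measure the spread between these mice. Alternatives were quantile or median-of-ratios scaling, a filter at 10 CPM or none, pseudocounts of 0.1 and 5, robust moderation, weights per library, a fit of the 2 groups alone, and leaving out each library. The series' single-cell experiment was not analysed here.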

Additional observations from a re-analysis of the deposited data

Results flagged for a closer look

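Within groups of 4, a library was looked at again where its gap to the nearest other one, divided by the range of the group, passed Dixon's critical value for 4 samples. This was so in 4 of 39 groups examined, and chance alone gives about 1 in 20. Psmb10 in 5-week replicate 3, at 84.4 CPM against 70.3 to 71.2 CPM in the other 5-week lungs, had a gap of 0.93 of the range. Nlrc5 in 2-week replicate 1, at 10.99 CPM against 15.6 to 16.6 CPM in the other 2-week lungs, had a gap of 0.856. The log2 ratio of Psmb9 to Psmb6 in control replicate 1, whose ratio was 0.532 against 0.427 to 0.435 in the other controls, had a gap of 0.911. The log2 ratio of Psmb10 to Psmb7 in control replicate 2, whose ratio was 0.852 against 1.07 to 1.10 in the other controls, had a gap of 0.869.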

How the results depend on the processing

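Over 22 alternative settings, all 220 differences of the 10 genes stayed above 0 in 5-week against control lungs, with limma adjusted p from 0.273 to 0.92 and none past 0.05. In 5-week against 2-week lungs all 220 stayed above 0, 6 passed, and adjusted p ran from 0.0193 to 0.985. In 2-week against control lungs 146 lay above 0 and none passed (0.224 to 0.9999). Library weights gave 18 genes past the threshold in 2-week against control lungs, 881 genes and 5 members in 5-week against 2-week lungs, and 1 member in the F-test. Leaving out 1 library gave 0 to 24 genes in 2-week against control lungs (24 without 5-week replicate 3, 1 without control replicate 1), 0 to 1 in 5-week against control lungs and 0 to 386 in 5-week against 2-week lungs (386 without 2-week replicate 4). Members past the threshold were 0 to 1 in 5-week against 2-week lungs and 0 to 1 in the F-test. Members with no overlap were 0 to 4 in 2-week against control, 4 to 9 in 5-week against control and 3 to 5 in 5-week against 2-week lungs, and 6 in the last without the 3 libraries that stand apart. Members at an unadjusted p under 0.05 were 0 to 2, 5 to 8 and 3 to 7 in the same order. Leaving out libraries leaves fewer samples; otherwise the cause was not tested.

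Signs turned for differences near 0. In 2-week against control lungs, H2-K1 was at -0.0099 with median-of-ratios scaling, -0.0375 with weights, -0.033 to 0.0395 with 1 library left out and -0.0231 without the 3 libraries; H2-D1 at -0.0117, -0.0314 and -0.0384 to 0.0397 under the first 3 of these; Psmb8 at -0.1221 to 0.0135 and Psmb7 at -0.0412 to 0.1138 with 1 left out; Psmb7 at -0.0004 with weights; Erap1 at 0.0039 and Calr at 0.0112 without the 3 libraries. In 5-week against control lungs Psmb6 was at -0.0435 with weights, -0.0426 to 0.1299 with 1 left out and -0.0466 without the 3. In 5-week against 2-week lungs, leaving out 1 library gave -0.1549 to 0.0176 for Psmb6, -0.1851 to 0.0165 for Psmb5, -0.0355 to 0.2058 for Psmb7 (-0.022 without the 3) and -0.0512 to 0.1057 for log2 Psmb10/Psmb7.

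No paired analysis was possible because the labels number no replicates, and the numbers used here only name libraries. Depth was 26000000 reads or more per library, and the lowest value of any of the 10 genes was 10.99 CPM, of Nlrc5.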
